A study of Homo sapiens with 4 samples.

Results

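The glycoprotein hormone subunit genes *CGA*, *CGB1*, *CGB2*, *CGB3*, *CGB5*, *CGB7*, *CGB8*, *LHB*, *FSHB* and *TSHB* were followed in H1 human embryonic stem cells (hESCs) of the naïve and the primed state. These 10 genes, of 62218 in the table, were taken by symbol, with the 23 annotated transcripts that carry them out of 244825. They were chosen with the difference between the 2 states in view, so that difference is given below as a description and carries no test. The naïve cells were wild type H1 cells, a line established from a human embryo, converted to the naïve state and kept in FINE medium on Matrigel at low oxygen. Per the methods, the naïve medium held LIF, activin A, bFGF and small molecules, among them dasatinib, AZD5438, SB590885 and PD0325901. The primed cells were wild type H1 cells kept in mTeSR, which holds them in the state of a later embryo. Medium, oxygen and state differ together and cannot be told apart. RNA was copied into cDNA and read as long Nanopore reads, in 2 libraries per state, and all come from a single line. The labels do not say that replicates were separate cultures, so every p-value below measures only the spread between these libraries, which may be technical.

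Chorionic gonadotropin, luteinizing hormone, follicle-stimulating hormone and thyroid-stimulating hormone are dimers of a common alpha subunit, encoded by *CGA*, and a beta subunit that gives each hormone its specificity. Chorionic gonadotropin is made by the trophoblast of the placenta, above all by syncytiotrophoblast, and signals that a pregnancy has begun. The other hormones are made by the anterior pituitary. The *CGB* genes, which encode the beta subunit of chorionic gonadotropin, arose by duplication of *LHB* and still lie beside it on chromosome 19. In trophoblast, *CGA* responds to cyclic AMP through binding sites for CREB proteins, the cyclic AMP response elements (CREs).

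The promoters of the subunit genes are shown because *CGA* on chromosome 6 and the detected beta genes on chromosome 19 were high in the same libraries although their upstream sequences differ. All 10 genes matched the RefSeq promoter table (GRCh38.p14). The 150 bases that end just before the annotated start are printed 5′ to 3′ on the strand of the gene, with capitals for the CRE letters TGACGTCA, which read the same on both strands. They are chr6:87095107-87095256 (minus strand) for *CGA*, chr19:49036896-49037045 (minus) for *CGB1*, chr19:49031740-49031889 (plus) for *CGB2*, chr19:49024334-49024483 (minus) for *CGB3* and chr19:49017092-49017241 (minus) for *LHB*.
CGA: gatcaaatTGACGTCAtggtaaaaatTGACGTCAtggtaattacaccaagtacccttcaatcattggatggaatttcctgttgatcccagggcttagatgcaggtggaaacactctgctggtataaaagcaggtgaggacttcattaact
CGB1: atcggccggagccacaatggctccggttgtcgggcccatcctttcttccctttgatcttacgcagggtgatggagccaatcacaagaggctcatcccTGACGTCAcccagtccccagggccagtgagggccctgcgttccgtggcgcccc
CGB2: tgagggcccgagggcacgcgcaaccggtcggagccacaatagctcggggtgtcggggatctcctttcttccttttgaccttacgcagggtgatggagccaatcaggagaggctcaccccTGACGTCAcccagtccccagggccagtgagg
CGB3: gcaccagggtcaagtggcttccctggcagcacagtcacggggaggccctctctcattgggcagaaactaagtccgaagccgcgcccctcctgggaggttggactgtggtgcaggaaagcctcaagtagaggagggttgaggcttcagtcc
LHB: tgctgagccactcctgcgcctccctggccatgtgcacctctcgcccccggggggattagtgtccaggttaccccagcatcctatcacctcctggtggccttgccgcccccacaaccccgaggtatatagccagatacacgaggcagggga
The *CGA* promoter held 2 copies of TGACGTCA, which began 142 and 124 bases before the start. *CGB1* and *CGB2* each held 1 copy, 53 and 31 bases before their starts. No copy was found in the 250 bases before the RefSeq starts of the other 7 members. Among 35116 promoter windows of the same 250 bases, 1.65% held at least 1 copy and 0.0541%, or 19 windows, held at least 2. The TATA letters TATAAA, searched on both strands, were found in 3 members, *CGA*, *FSHB* and *TSHB*, against 10.7% of all windows. In *CGA* they do not overlap the CRE letters. The match of *TSHB* is on the opposite strand. The *TSHB* window (chr1:115033696-115033945) lies inside the transcript counted for this gene, TSHB-201, and not before its start. The same holds for the *CGB7* window (chr19:49057750-49057999) and CGB7-202. These are matches of letters, and no binding was measured here. Promoters of the *CGB* genes fell apart into groups. Those of *CGB3*, *CGB5* and *CGB8* shared 89.3% to 96.0% of alignment columns over 250 bases, with gaps counted as differences. Those of *CGB1* and *CGB2* shared 69.9% of 276 columns. Their annotated starts lie at different distances from the CRE, 53 and 31 bases, which adds gaps and lowers this value. Between these groups the identity was 42.2% to 44.8%. The transcribed parts were far closer: over their last 2 exons the 6 *CGB* genes were at least 98.2% identical to each other, and *LHB* was 91.4% to 91.8% identical to each of them.

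Values are counts of alignments over the whole span of a transcript, introns included and strand ignored, and the gene takes the transcript with the largest mean count. Levels are given in CPM, the counts scaled to the same library size, after TMM normalization, a scaling that balances the bulk of genes between libraries, and levels of different genes are compared per kb of exon. The total was between 129276054 and 161548901 counts per library. CPM were scaled to the part of it on the transcripts taken for the genes, 23542387 to 30978752 counts. A count of 0 leaves room for 3 counts, which is 0.0978 to 0.130 CPM on the normalized scale used here. Reads carried no molecular identifiers, and limits and intervals of this kind cover counting error only. A read that aligned at several places was counted at each, so near-identical genes share reads.

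*CGA*, the common alpha subunit, was among the most abundant transcripts of naïve hESCs and was all but absent from primed hESCs. Naïve rep1 had 35747 counts of it, naïve rep2 had 47550, primed rep1 had 0 and primed rep2 had 1. Normalized, the naïve level was 1705 ± 222 CPM (SD, n = 2), or 2339 ± 304 CPM per kb. By CPM per kb, which favours short transcripts, *CGA* was at rank 191 of 38682 genes with a count in naïve rep1. In naïve rep2 it was at rank 125 of 40172. The ratio of naïve to primed summed counts, corrected for library size, was 103056, with a 95% counting interval from 18496 to 4070537 that is wide because it rests on a single primed alignment. In these bulk libraries, fewer expressing cells and less RNA per cell cannot be told apart.

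**Figure D1:**
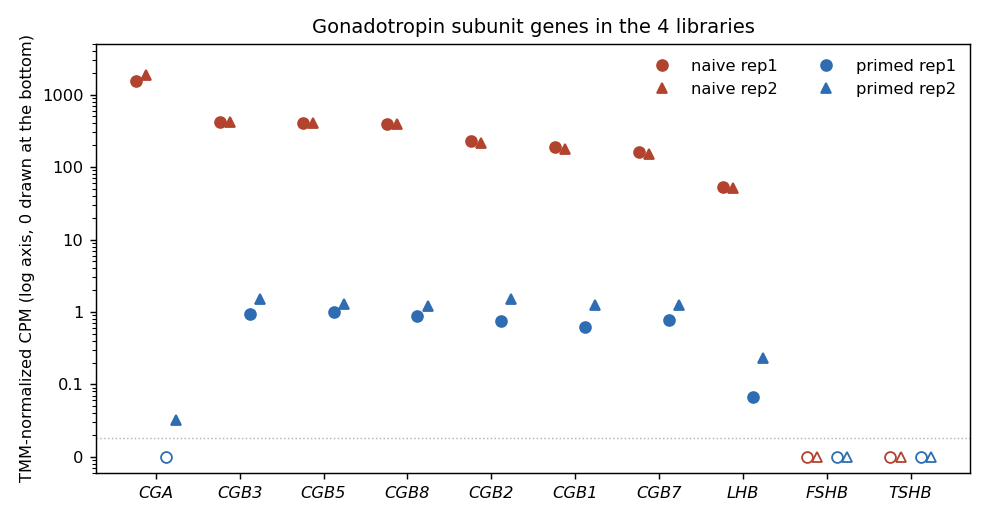
TMM-normalized CPM of the 10 subunit genes (log axis) in each of the 4 libraries, with open symbols at the bottom for a count of 0. CGA, the CGB genes and LHB are high in both naïve libraries and low in both primed libraries, and FSHB and TSHB are at 0 in all 4.

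The beta subunit genes of chorionic gonadotropin were high in the same libraries as *CGA*. *CGB3* had 9797 and 10696 counts in naïve rep1 and rep2, while primed rep1 and rep2 had 28 and 46. *CGB5* had 9344 and 10212 counts, against 29 and 39 in primed cells. *CGB8* had 9158 and 9891 counts, against 26 and 37. These 3 genes, which encode the main beta subunit transcripts of the placenta, were at similar levels, and their naïve mean CPM was 344, 357 and 375 times the primed mean.

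*CGB2* and *CGB1* followed at a lower level. *CGB2* had 5221 and 5509 counts in naïve cells and 22 and 47 in primed cells, a ratio of mean CPM of 194. *CGB1* had 4335 and 4583 counts, against 18 and 38, a ratio of 199. Both genes carry upstream sequence unlike that of the other *CGB* genes, as printed above. *CGB7* had 3714 and 3897 counts in naïve cells and 23 and 38 in primed cells, a ratio of 155. As described below, 99.9% of its naïve alignments touched only the 3′ side, where the *CGB* genes are nearly identical. How many of them came from reads of other *CGB* genes was not tested. Primed values of the 6 *CGB* genes thus lay between 18 and 47 counts, well above the floor of 3, in contrast to those of *CGA*.

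*LHB*, the beta subunit of luteinizing hormone, had 1241 and 1298 counts in naïve cells and 2 and 7 in primed cells. The ratio of summed counts was 349, with a counting interval of 184 to 764. Of its naïve alignments, 97.6% and 97.4% touched only the ends of its span, as described below. How many of them came from reads of *CGB* genes was not tested. *FSHB* and *TSHB*, the beta subunits of follicle-stimulating and thyroid-stimulating hormone, had 0 counts in all 4 libraries, which allows up to 3 counts in each. *FSHB* lies within the span of the opposite-strand transcript ARL14EP-DT-202, which had 6, 7, 14 and 23 counts in naïve rep1, naïve rep2, primed rep1 and primed rep2, none of them over *FSHB*.

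Of the 10 members, 8 passed the filter of at least 10 counts in at least 2 libraries, and *FSHB* and *TSHB* did not. In all 8 both naïve libraries lay above both primed libraries, which held for 39.6% of all 27633 genes that passed. In edgeR's quasi-likelihood test across all genes at an adjusted p under 0.05, 32.6% were higher in naïve, 37.4% were higher in primed and 70.0% changed in either direction. Since the members were chosen from this same contrast, nothing is read from their own count.

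Per kb of exon, the order of naïve levels was *CGA*, *CGB3*, *CGB5*, *CGB8*, *CGB2*, *CGB1*, *LHB* and *CGB7*. *CGB3* had 481 ± 4.4 CPM per kb, *CGB5* 459 ± 3.9 and *CGB8* 442 ± 7.4 (SD, n = 2 each). *CGB2* had 309 ± 10.3 and *CGB1* 265 ± 8.5 CPM per kb. *LHB* had 99.8 ± 3.9 and *CGB7* 46.3 ± 1.7 CPM per kb, where the long annotated exons of the *CGB7* transcript, 3386 bases, lower its value. Without division by exon length, *CGB7* stood above *LHB*, at 157 against 52.3 CPM. A long read can cover a whole transcript, so counts need not grow with exon length. No 2 neighbours in the order per kb overlapped between libraries, but the *CGB* values share reads and the SD of 2 libraries is itself uncertain.

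**Figure D2:**
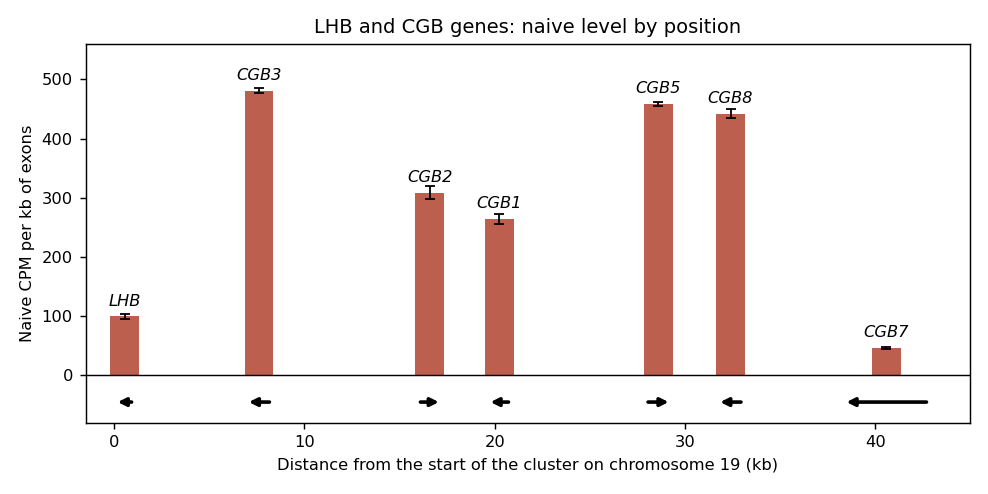
Naïve level of the 7 beta subunit genes of chromosome 19 in CPM per kb of exons (bars, mean of 2 libraries, whiskers SD) against distance from the start of the cluster in kb, with arrows for the span and direction of transcription. CGB3, CGB5 and CGB8 are the highest, CGB2 and CGB1 are intermediate, and LHB and CGB7 at the ends of the cluster are the lowest.

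The 7 genes on chromosome 19 occupy 42.9 kb (chr19:49015980-49058860, GRCh38), with 5 genes on the minus strand and *CGB2* and *CGB5* on the plus strand. Level did not follow orientation: *CGB3* and *CGB8* on the minus strand and *CGB5* on the plus strand were within 442 to 481 CPM per kb. Annotated genes in the spaces between held few counts. The *NTF6A*, *NTF6G* and *NTF6B* pseudogenes of neurotrophin-4 that alternate with the *CGB* genes, chosen here after their values were seen, had 8 and 4, 10 and 4, and 3 and 2 counts in the naïve libraries. An annotated read-through transcript, ENST00000591656 (chr19:49022953-49036895), spans *CGB2*, *CGB1*, most of *CGB3* and the spaces between them. It leaves out the 3′ end of *CGB3*, whose span begins at base 49022869, and so misses alignments confined to that end. It had 18365 and 19576 naïve counts, fewer than the 19353 and 20788 obtained by adding these 3 genes, and the part of that end in the difference was not tested. In primed cells it had 78 and 145 counts, more than the added 68 and 131.

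Differences between nested spans show where in *CGB7* and *LHB* the alignments lay. All *CGB7* alignments touched its shorter transcript CGB7-204, and at most 4 in any library touched the transcript ENST00000637404 (chr19:49056269-49058745), which covers the 5′ exons of *CGB7*. At least 3710 of 3714 and 3893 of 3897 naïve alignments (99.9% in both) therefore touched only the 3′ side, chr19:49054275-49056268, where the last 2 exons are 98.2% to 99.0% identical to the other *CGB* genes. For *LHB*, the inner transcript LHB-202 had 30 and 34 naïve counts. The other 1211 and 1264 alignments, 97.6% and 97.4%, touched only the last 95 bases (chr19:49015980-49016074) or the 271 bases at the 5′ end (chr19:49016821-49017091). The 95 bases are 89.7% to 90.7% identical to the *CGB* genes, against 91.4% to 91.9% for the rest of the last 2 exons. How much of the *CGB7* and *LHB* counts came from reads of other *CGB* genes was not tested. *RUVBL2*, a helicase gene that ends 0.01 kb from *LHB*, had 745 and 716 naïve counts and 817 and 737 primed counts, and did not pass the test (adjusted p = 0.192, edgeR).

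Few *CGA* alignments were confined to the 3′ end of the gene. Its 6 annotated transcripts share their 5′ side and differ at the 3′ side, so that the loss from 1 span to the next counts alignments confined to the 3′ end. Of 35747 alignments in naïve rep1, 34750, or 97.2% (95% Wilson interval 97.0% to 97.4%), touched the shortest span, whose 3′ border is base 87087699 of chromosome 6. In naïve rep2, 96.7% (96.5% to 96.8%) did, which leaves 997 and 1577 alignments in the 3′ part alone. Since the 6 spans hold nearly the same alignments, their counts are not those of isoforms.

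Subunit balance within naïve cells depended on how shared reads are viewed. *CGA* made up 45.5% (95% Wilson interval 45.2% to 45.9%) of all alpha and beta subunit counts in naïve rep1 and 50.8% (50.5% to 51.1%) in naïve rep2. *CGA* counts were thus 0.835 and 1.03 times the sum of the beta genes, 42810 and 46086. Set against the largest single beta gene, *CGB3*, they were 3.65 and 4.45 times as many. The reads behind the beta counts lie between the largest gene and the sum, because 1 read can be counted at several *CGB* genes. The intervals of the *CGA* share do not hold this sharing. Adding all annotated transcripts instead raised the *CGA* share to 78.0% and 81.5%, since 6 nested *CGA* spans count the same alignments. In primed cells the beta genes summed to 148 and 252 counts and *CGA* to 0 and 1.

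Within the beta counts, the shares of the genes were nearly the same in both naïve libraries. *CGB3* held 22.9% and 23.2%, *CGB5* 21.8% and 22.2%, and *CGB8* 21.4% and 21.5%. *CGB7* held 8.68% and 8.46% (Wilson intervals 8.41% to 8.95% and 8.21% to 8.71%). Among the few primed counts *CGB7* held 15.5% and 15.1%, with intervals that start at 10.6% and 11.2% and so lie above the naïve ones, while *CGB3* held 18.9% and 18.3%, with intervals of 13.4% to 26.0% and 14.0% to 23.5% that hold the naïve values. *CGB5* held 19.6% and 15.5% in primed and *CGB8* 17.6% and 14.7%, where the intervals of primed rep2, 11.5% to 20.5% and 10.8% to 19.6%, lie below the naïve shares and those of primed rep1 do not. *LHB* held 2.90% and 2.82% in naïve and 1.35% and 2.78% in primed. These counting intervals do not hold the spread between libraries. They also treat every count as a separate read, although 1 read can be counted at several *CGB* genes, so they may be too narrow. No difference in shares between the states is read from them.

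Alpha and beta genes also differed between the naïve replicates. *CGA* was 1.20 times as high in naïve rep2 as in naïve rep1, above 94.0% of 3071 genes with a naïve mean of at least 1000 counts, whose median ratio was 0.939 and whose 5th to 95th percentiles were 0.797 to 1.23. The ratios of the 7 beta genes were 0.946 to 0.988, near that median. Of the 17 trophoblast markers listed further on, 14 were higher in naïve rep2 and 16 lay above the median ratio of 0.939. Their ratios ran from 0.857 for *TEAD4* to 1.77 for *HAND1*, which had only 27 and 53 naïve counts, with a median of 1.25. Most of these markers lie below the 1000 counts required of the genes behind the median of 0.939. The markers that reach it were *ERVW-1* at 1.25, *GATA3* at 1.07, *S100P* at 1.05 and *XAGE2* at 0.974. Among the naïve pluripotency markers, the ratios ran from 0.756 for *DNMT3L* to 1.33 for *KLF5*. With 2 naïve libraries, no test of the difference between *CGA* and the beta genes was possible.

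**Figure D3:**
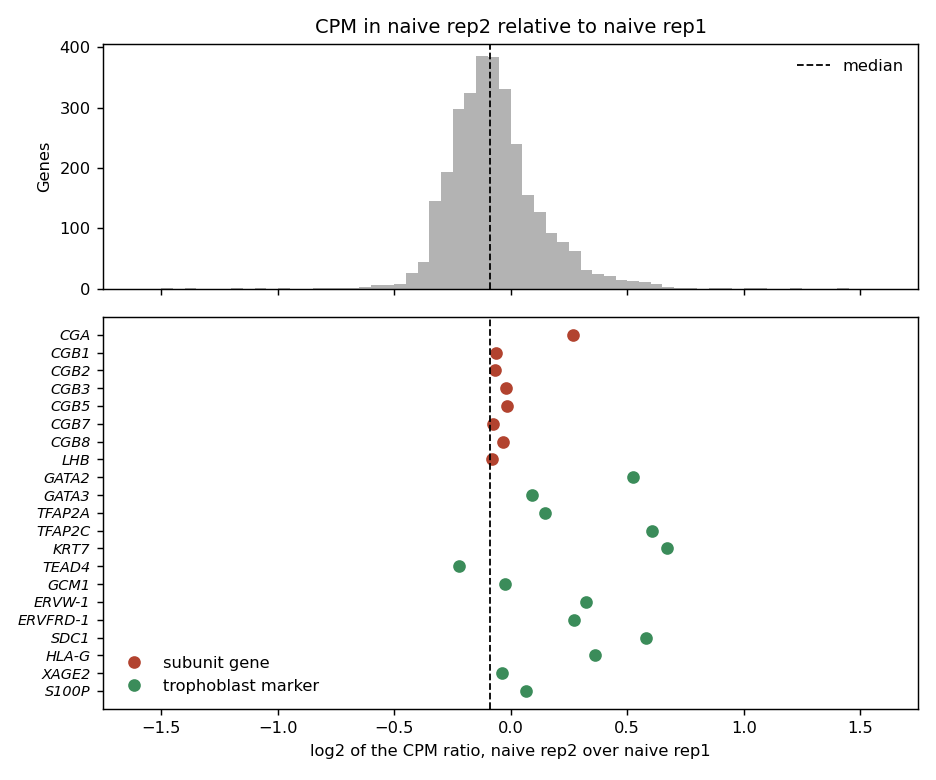
CPM in naïve rep2 relative to naïve rep1 on a log2 axis, as a histogram over 3071 well-counted genes (top, 4 genes lie beyond its bins) and for the 8 detected subunit genes and 13 trophoblast markers (bottom), with the median as a dashed line. CGA lies to the right of the median at a ratio of 1.20, and the 7 beta genes lie close to it.

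Markers of cell types known to make these hormones were compared in the same libraries. They and the gene lists below were chosen with earlier results of these data known, so their shares are a description. Of 17 trophoblast markers, 16 could be tested, 15 were higher in naïve and none in primed (edgeR, adjusted p under 0.05), and *KRT7* did not pass. Over all genes tested, 32.6% were higher in naïve and 37.4% in primed. The summed level of the 17 markers was 723 and 781 CPM in naïve and 24.7 and 24.5 CPM in primed libraries. Most of the naïve sum came from *S100P* (357 and 373 CPM) and *XAGE2* (138 and 134 CPM). The defining factors *GATA3* (976 and 1151 naïve counts, 15 and 16 primed) and *TFAP2A* (823 and 1008, against 3 and 0) were among the markers higher in naïve. *CDX2* was at 3, 4, 2 and 2 counts. All 8 amnion markers were higher in naïve, at 24.4 and 22.9 CPM summed against 7.23 and 5.87. Of 11 pituitary markers, 4 were tested, 2 higher in each state. *POU1F1* and *LHX3*, the defining factors of the pituitary lineages, had at most 1 count in any library, and *POMC*, the corticotropin precursor, had 234 and 219 naïve counts against 18 and 34. The markers of each state followed the labels. All 9 naïve pluripotency markers were higher in naïve (1240 and 1059 CPM summed, against 77.4 and 79.2) and all 8 primed markers higher in primed (185 and 192, against 2.47 and 3.02). Of the naïve markers, *KLF17* differed little, at 95.3 and 94.9 CPM against 70.7 and 72.9 (log2 fold change 0.41, adjusted p = 0.0107, edgeR). It held most of the primed sum of the naïve markers. *POU5F1*, the pluripotency factor shared by both states, had 7606 and 6709 naïve and 8689 and 8520 primed counts (adjusted p = 0.771, edgeR). Trophoblast, amnion and naïve markers moved with the subunit genes, and their part in the result was not tested.

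Genes with the profile most like that of *CGA* over the 4 libraries were sought among 17614 other tested genes with a mean of at least 50 counts, by the distance between centred log2(CPM + 0.1) values, where a smaller distance means a closer profile. The nearest was *KHDC1L*, a KH domain gene, at a distance of 1.56, with 27211 and 26908 naïve counts and 4 and 2 primed counts. *S100P*, a calcium-binding protein abundant in placenta, followed at 2.04 (8234 and 9529, against 0 and 0). *H19*, an imprinted noncoding RNA of the placenta, was at 3.06 (7356 and 8192, against 4 and 0). *XAGE2*, a cancer-testis and placental antigen, was at 3.46 (3180 and 3426, against 0 and 0). *DNMT3L-AS1*, antisense to the methylation cofactor gene *DNMT3L* and not separable from it without strand, came next (4191 and 3485, against 2 and 2). As a profile over 4 libraries of 2 states, this ranks mainly the size of the difference.

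Transcription factors described at the subunit promoters were mostly higher in naïve cells. Of 25 listed, 19 were tested, 15 were higher in naïve, 3 in primed and *POU5F1* did not pass. That is 94.7% called, against 70.0% of all genes, in a list chosen with earlier results of these data known. The median log2 fold change of primed over naïve was -1.76, against 0.08 over all genes tested. Of the 25, 5 are also among the trophoblast markers above. With library size in place of TMM, which shifts the median of all genes to 0.72, the split was 12 and 4. *GATA2*, which acts on the *CGA* promoter in trophoblast and pituitary, had 619 and 985 naïve and 4 and 3 primed counts, a log2 fold change of 8.08 ± 0.30 (SE, adjusted p = 3.04e-26, edgeR). *GCM1*, the driver of syncytiotrophoblast differentiation, had 284 and 309 counts against 1 and 3 (7.42 ± 0.36, adjusted p = 3.13e-22, edgeR). *TFAP2A*, with 3 primed counts in all, had a ratio of 755 with a counting interval of 258 to 3665. *MSX2*, a homeobox repressor, had 1237 and 1555 counts against 16 and 20 (6.57 ± 0.22).

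In primed cells, *EGR1*, which drives *LHB* in the pituitary, had 130 and 106 counts and 0 in both naïve libraries, at least 63.6-fold higher against a floor of 3 counts over both. *CREB1*, the CRE-binding factor itself, was lower in naïve, with 237 and 266 counts against 634 and 674 in primed (log2 fold change of naïve over primed -1.07 ± 0.16, adjusted p = 1.4e-07, edgeR). *THRB*, the thyroid hormone receptor that represses *TSHB* and *CGA*, had 55 and 74 naïve and 142 and 215 primed counts (-1.16 ± 0.23). The pituitary factors *LHX3* and *POU1F1*, and *LHX2*, *FOXL2*, *NR5A1* and *PITX1*, had too few counts to be tested.

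The cyclic AMP and protein kinase A route that acts on the *CGA* promoter had genes on both sides. All 25 genes were tested, 13 were higher in primed, 4 in naïve and 8 did not pass, so that 68.0% were called against the 70.0% of all genes, with a median log2 fold change of primed over naïve of 0.72, and with library size the split was 19 and 2. The adenylate cyclases, which make cyclic AMP, led it: *ADCY2* had 11 and 9 naïve counts against 575 and 671, *ADCY1* had 10 and 6 against 233 and 334, and *ADCY5* had 10 and 5 against 155 and 182. Their log2 fold changes of naïve over primed were -5.64 ± 0.26, -4.81 ± 0.31 and -4.16 ± 0.34. *PRKAR2B*, a regulatory subunit of protein kinase A, had 8 and 20 counts against 84 and 114 (-2.51 ± 0.33). Among genes higher in naïve, *PRKAR2A*, another regulatory subunit, had 948 and 1365 counts against 496 and 552 (1.44 ± 0.16), and *CRTC2*, a CREB coactivator, had 185 and 190 against 92 and 93 (1.33 ± 0.21). The coactivators *CRTC3* (0.42 ± 0.16, adjusted p = 0.0195, edgeR) and *CREBBP* (0.38 ± 0.16, adjusted p = 0.031, edgeR) passed narrowly, did not pass without naïve rep2 or without either primed library, and reversed in sign with library size.

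**Figure D4:**
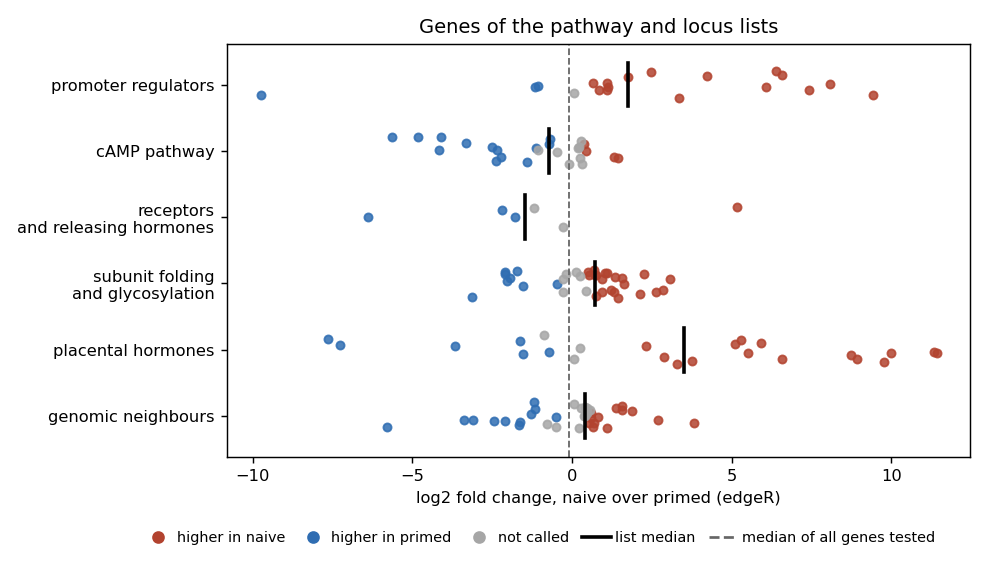
Log2 fold change of naïve over primed (edgeR) for each tested gene of the 6 lists, coloured by the call at an adjusted p under 0.05, with a black bar for the list median and a dashed line for the median of all genes. Placental hormones and promoter regulators have medians on the naïve side, and the cAMP pathway and the receptors on the primed side.

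Receptors of these hormones and the releasing hormones of the hypothalamus were at low counts. Of 12 genes, 6 were tested, 3 were higher in primed, 1 in naïve and 2 did not pass. The 66.7% called lay near the 70.0% of all genes, and with library size the split was 5 and 1. *TRH*, thyrotropin-releasing hormone, was the exception, with 131 and 107 naïve counts against 4 and 4 (log2 fold change 5.16 ± 0.39, adjusted p = 1.09e-15, edgeR). *LHCGR*, the receptor of luteinizing hormone and chorionic gonadotropin, had 9 and 13 naïve counts and 40 and 54 primed counts. *FSHR*, the receptor of follicle-stimulating hormone, had 1 and 1 against 7 and 12, too few to test, and *GPHB5*, the beta subunit of thyrostimulin, was at 0 in all 4 libraries. *KISS1R*, the kisspeptin receptor, had 1, 1, 0 and 2 counts.

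Genes that fold and glycosylate secreted subunits were higher in naïve more often than in primed. Of 35, all tested, 21 were higher in naïve, 8 in primed and 6 did not pass. That is 82.9% called, against 70.0% of all genes, in a list chosen with earlier results of these data known. The median log2 fold change of primed over naïve was -0.72, but with library size the split was 13 and 12 with a median of -0.09. *HSPA5*, the main chaperone of the endoplasmic reticulum, had 11927 and 11837 naïve and 2544 and 2188 primed counts (2.64 ± 0.15). *MGAT4A*, which branches N-glycans, had 330 and 426 against 48 and 62 (3.08 ± 0.21). *ST3GAL1*, a sialyltransferase, had 298 and 399 against 50 and 70 (2.84 ± 0.21), and *B4GALT1*, a galactosyltransferase, 549 and 658 against 141 and 172 (2.25 ± 0.17).

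Higher in primed were *ST3GAL3*, another sialyltransferase, with 20 and 20 naïve counts against 207 and 230 (-3.13 ± 0.26), and *MGAT5*, another branching enzyme, with 73 and 88 against 341 and 471 (-2.02 ± 0.20). *CHST9*, one of the sulfotransferases that can cap pituitary hormone glycans, had 58 and 59 against 285 and 337 (-2.10 ± 0.21). *ST3GAL6* had 53 and 79 against 328 and 301 (-1.95 ± 0.21), a call that rests on the transcript chosen, since the transcript with the longest exons gave 0.13.

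Other placental hormones and enzymes were mostly, but not all, on the side of the subunit genes. Of 32 listed, 24 were tested, 15 were higher in naïve, 6 in primed and 3 did not pass. That is 87.5% called, against 70.0% of all genes, in a list chosen with earlier results of these data known. With library size the split was 15 and 7. The median log2 fold change of primed over naïve was -3.52, or -3.20 with the 8 genes at 0 in 1 state set to their bound. *INSL4*, an insulin-like peptide of early placenta, had 259 and 353 naïve counts and 0 in primed, at least 252-fold higher. *HSD3B1*, which makes progesterone in the placenta, had 283 and 286 against 0 and 0, at least 235-fold higher. *PSG5*, a pregnancy-specific glycoprotein, had 107 and 118 against 0 and 0, at least 92.8-fold higher, and *PSG4* had 244 and 259 against 0 and 1, a ratio of 622 with a counting interval of 111 to 24628. The *PSG* genes are close copies and share reads. The other 5 genes higher in primed, named after their values were seen, were *GH2*, *INHA*, *INHBA*, *PAPPA* and *PAPPA2*. *INHBA*, a subunit of activin, had 31 and 24 primed counts and 0 in naïve, at least 14.8-fold higher. In the same direction, *TAC3*, the precursor of neurokinin B, had 178 and 188 counts against 56 and 46 in naïve (-1.53 ± 0.23).

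Genes around the subunit loci did not share their change as a whole. Of 53 genes within 250 kb, 35 were tested, 13 were higher in naïve, 11 in primed and 11 did not pass, so that 68.6% were called, near the 70.0% of all genes, and with library size 7 and 15, where the median for primed over naïve changed from -0.39 to 0.25. The nearest genes that passed the filter beside *CGA* were *HTR1E*, a serotonin receptor 68.8 kb away, with 15, 17, 7 and 20 counts (adjusted p = 0.272, edgeR), and *ZNF292*, a zinc finger gene 60.5 kb away, with 997 and 1253 against 795 and 1032 (0.61 ± 0.15, adjusted p = 4.96e-04, edgeR). Closer still, the pseudogene *RN7SKP209* at 1.967 kb had 5 and 9 naïve counts and 0 in primed. On the far side of *CGB7*, *NTF4*, 2.708 kb away, had 9 and 18 against 24 and 34 (adjusted p = 0.0721, edgeR).

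Farther along chromosome 19, *PPP1R15A*, a stress-response phosphatase subunit, had 1495 and 1447 naïve and 125 and 134 primed counts (3.82 ± 0.17). *TRPM4*, a cation channel, had 684 and 509 against 185 and 216 (1.89 ± 0.18). *NUCB1*, a calcium-binding Golgi protein, had 1511 and 1355 against 608 and 594 (1.57 ± 0.15), and *NUCB1-AS1*, which cannot be told apart from it without strand, 1222 and 1070 against 502 and 452. Another gene of this chromosome, the pseudogene *SUMO1P4*, had 36 and 58 against 130 and 151 (-1.28 ± 0.25). Beside *TSHB* and *FSHB*, 4 named neighbours were higher in primed. *TSPAN2*, a tetraspanin 13.7 kb from *TSHB*, had 2 and 3 naïve counts against 174 and 180 (-5.78 ± 0.40), and *SYCP1*, a meiotic gene 34.5 kb away on the other side, 13 and 18 against 50 and 68. *ARL14EP*, 87.8 kb from *FSHB*, had 77 and 85 against 320 and 310 (-1.65 ± 0.20), and *MPPED2* 9 and 10 against 107 and 95 (-3.09 ± 0.34). *LINC02755*, on the other side of *FSHB* at 242 kb, had 13 and 16 against 29 and 22 (adjusted p = 0.250, edgeR).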

How the data were processed

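Complementary DNA of naïve and primed H1 hESCs was sequenced as Nanopore long reads, 2 libraries per state. Per the labels, the authors aligned reads with minimap2 and counted alignments with featureCounts, version 2.0.0 per the file headers, on the transcripts of Ensembl release 105 (GRCh38). The cDNA alignment used "-ax splice --MD", per the methods. The deposited values are raw counts, not normalized, with every overlapped transcript (-O) and every aligned place of a read (-M) counted. Totals were 129276054 to 161548901 counts, and counting error is small beside the spread between libraries except for genes near 0. Because spans ignore strand and hold introns, overlapping and near-identical genes share counts.

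Transcript identifiers were matched to GENCODE release 44 for symbols and exon lengths (242542 of 244825 matched, 97.9% of them with the same coordinates). The rest, with 1.00% of the counts, was not used. A gene took its transcript with the largest mean count. Genes that reached 10 counts in 2 or more libraries entered edgeR 4.0.16 in R 4.3.3 (TMM, quasi-likelihood test, two-sided, Benjamini-Hochberg over 27633 genes), tested on simulated data beforehand. Alternatives were DESeq2 1.42.0, library size, other filters and transcript choices, a replicate block and each library left out. Wilson and exact binomial intervals (95%) came from scipy 1.17.1, and alignments of sequences from Biopython 1.88. Sequences are from RefSeq and GENCODE.

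The members and all gene lists were chosen with earlier results of these data known. Named genes are all 10 members and, from each list, up to 4 called genes per direction with the largest change and a mean of at least 50 counts, receptors or releasing hormones at or under 3 counts, the nearest genes of each locus and the 5 genes most like *CGA*. *LHCGR*, *FSHR*, *KISS1R*, *SYCP1*, *RN7SKP209*, the pseudogenes within the cluster and the markers quoted singly were named after their values were seen. Samples were grouped by their labels, and replicates were distinct libraries (chi-square per degree of freedom 15.2 between naïve and 8.89 between primed replicates). Replicate numbers did not pair the samples, and the values behind this are given with the limits. Protein sequences were not used here. Of the pituitary markers, 1 is not reported here.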

Additional observations from a re-analysis of the deposited data

How the results depend on the processing

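*CGA* and the summed beta genes kept both naïve libraries above both primed libraries under library size, DESeq2 size factors and either other choice of transcript. The mean naïve level of *CGA*, 1705 CPM, became 1371 CPM with library size and 1929 CPM with counts summed over isoforms, and was 1548 to 1862 CPM with a library left out. The summed beta genes, 1830 CPM, became 1467 CPM with library size, 1865 CPM with DESeq2 size factors, 485 CPM with counts summed over isoforms and 2025 CPM with the longest transcript. Summing over isoforms also gave the *CGA* shares of 78.0% and 81.5%, because nested spans count the same alignments again. The 4 calls among receptors and releasing hormones became 8 with no count filter, 1 with at least 50 counts and 9 with summed isoforms, where more or fewer genes are tested. Sign reversed for *CREBBP* (-0.26) and *CRTC3* (-0.21), naïve over primed, with library size, and for *ST3GAL6* (0.13) with the longest transcript, none of them past the threshold, and the cause was not tested. Over all genes, library size gave 4511 genes higher in naïve and 15525 in primed, against 9009 and 10327, and DESeq2 gave 8177 and 8034. Leaving out each library in turn gave 17315 to 17869 calls against 19336, with the lone library of a state assumed to vary like the others. Replicate numbers are shared by the states, but deviations from the state means correlated at only 0.077 over 17615 genes, so the numbers were not taken as pairs. With the replicate block, 19690 genes were called and the list counts stayed within 1.5 times. Depth limits *FSHB*, *TSHB* and primed *CGA*, where 3 counts cannot be told from 0.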
